A study of Mus musculus with 185 samples.

Results

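The cell cycle module described here is a list of 48 genes, 30 of them expressed mainly in G2 and mitosis and 18 in S phase, followed across single cells of mouse heart, 152 from infarcts and 33 from uninjured hearts. Membership rests on the known phase of each gene and not on a contrast between these cells. The list was chosen with earlier results of these data known. All 48 genes were found among the 17171 genes of the deposited table. Detection in a cell meant a value above 5 transcripts per 1000000 (TPM). The G2/M side was called on in a cell with at least 10 of its 30 genes detected and the S side in a cell with at least 6 of its 18 genes detected, and the module was called on where either side was. Such a call is a range of a per-cell count and not a cell type, and no cell was scored for DNA synthesis or division.

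The mice carried a tamoxifen-inducible Cre (MerCreMer) in 1 allele of Postn or of Tcf21 together with a Cre-dependent eGFP reporter at the Rosa26 locus, on a C57BL/6 background, at about 5 months of age, and received tamoxifen in the chow. Infarct cells came from the scar region about a week after permanent ligation of the left coronary artery, and the other cells came from uninjured hearts. Interstitial cells negative for CD31, CD45 and the viability dye 7-AAD were captured on a Fluidigm C1 chip and checked for eGFP by microscopy. The labels form 9 classes, and the 4 prefixes of the cell names are each taken here as a capture. The Nov4 capture held 44 activated Tcf21-traced cells and 19 activated Postn-positive cells whose label names no tracer, called untraced Postn-positive here. The Jul29 capture held 27 activated Postn-traced cells, 24 activated Postn-negative cells and 6 untraced Postn-positive cells. The Nov11 capture held 29 untraced scar cells and 3 untraced Postn-positive cells. Traced cells of Nov4 are labelled by Tcf21 and those of Jul29 by Postn. Untraced can thus mean a different thing in each capture, and Nov11 held no traced class. All 33 uninjured cells came from the Jul24 capture, as 17 resident Tcf21-traced cells, 12 resident Postn-negative cells, 3 resident cells labelled positive for both Tcf21 and Postn, and 1 resident Postn-positive cell. Recombination depends on the activity of the Postn or Tcf21 promoter during tamoxifen feeding, so cells without eGFP can still belong to either lineage. In the infarct experiments the paper describes, mice of the Postn line were fed tamoxifen after infarction and those of the Tcf21 line before it. Treatment at harvest may thus have differed between the lines. No label ties a cell to a mouse, so each class is 1 sample, no test was run, and intervals are exact Clopper-Pearson 95% intervals that cover counting error only. Injury, mouse line and capture overlap in this design and their parts cannot be told apart, except between classes of the same capture.

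Cells that divide copy their DNA once per cycle and then segregate the copies. Licensing factors load the MCM helicase ring in G1, cyclin E and cyclin A kinases start replication, and Cdk1 with B-type cyclins drives mitosis until the anaphase-promoting complex destroys the cyclins. Fibroblasts of the adult heart are mostly quiescent, and they proliferate after infarction as the scar forms.

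The module was on in 17 cells, all of them from infarcts. That is 17 of 152 infarct cells, or 11.2% (6.65 to 17.3%), against 0 of 33 uninjured cells, with an upper limit of 9.09% (for counts of 0, 3 divided by the number of cells). Where any value over 0 was taken as detected, 1 of 33 uninjured cells had the module on as well, 3.03%, beside 28 of 152 infarct cells, 18.4%. The 17 cells had both sides on in 9 cases, the S side alone in 6 and the G2/M side alone in 2. Module-on cells held 6 to 42 members above 5 TPM with a median of 27, and module-off cells 0 to 8 with a median of 2. No cell held between 10 and 14 members, and 14 cells held 15 or more. The other 3 module-on cells held 6, 8 and 9 members, within or 1 above the range of module-off cells, and all 3 passed by the S side alone.

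**Figure D1:**
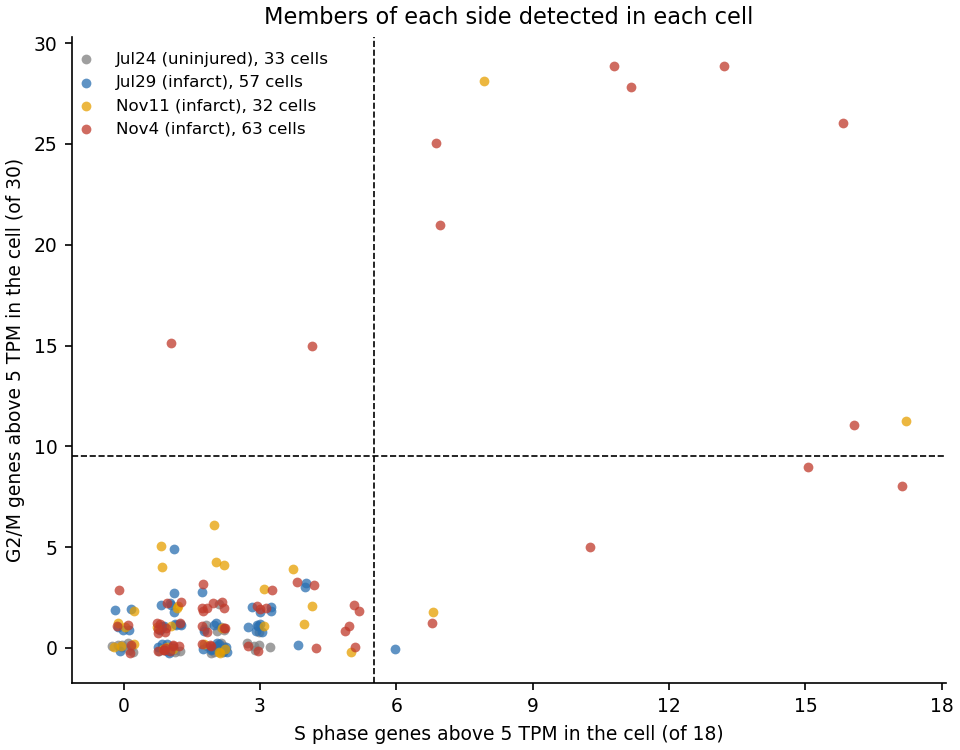
Number of the 18 S phase genes (x axis) and of the 30 G2/M genes (y axis) above 5 TPM in each cell, coloured by capture, with small random offsets so that cells with equal counts can be seen. Dashed lines mark the limits of 6 S genes and 10 G2/M genes, and most cells lie in the lower left corner while 9 cells pass both limits.

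Few cells lay near the G2/M limit and more lay near the S limit. No cell held exactly 10 G2/M genes, 2 held 11, 1 held 9 and 1 held 8, and the cells with 9 and 8 already had the S side on. On the S side 1 cell held exactly 6 S genes, 6 cells held 5, 10 held 4 and 4 held 7. In all, the G2/M side was on in 11 cells and the S side in 15.

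Among classes, the module was on most often in untraced Postn-positive and Tcf21-traced cells of the infarct. It was on in 7 of 28 untraced Postn-positive cells, 25% (10.7 to 44.9%), 6 of them with both sides and 1 with the G2/M side alone. Of the activated Tcf21-traced cells 8 of 44 had it on, 18.2% (8.19 to 32.7%), 3 with both sides, 1 with the G2/M side alone and 4 with the S side alone. Within the Nov4 capture, where both classes were sampled together, the counts were 5 of 19 or 26.3% (9.15 to 51.2%) and 8 of 44, so these intervals overlapped widely.

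Only 1 of 27 activated Postn-traced cells had the module on, 3.70% (0.0937 to 19%), and this cell held exactly the 6 S genes of the limit and no G2/M gene. Of the untraced scar cells 1 of 29 had it on, 3.45% (0.0873 to 17.8%), with 7 S and 2 G2/M genes. The count was 0 of 24 in activated Postn-negative cells, which allows up to 12.5%. It was 0 of 17 in resident Tcf21-traced cells and 0 of 12 in resident Postn-negative cells, which allows up to 17.6% and 25%. The remaining 3 and 1 resident cells had it off as well.

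**Figure D2:**
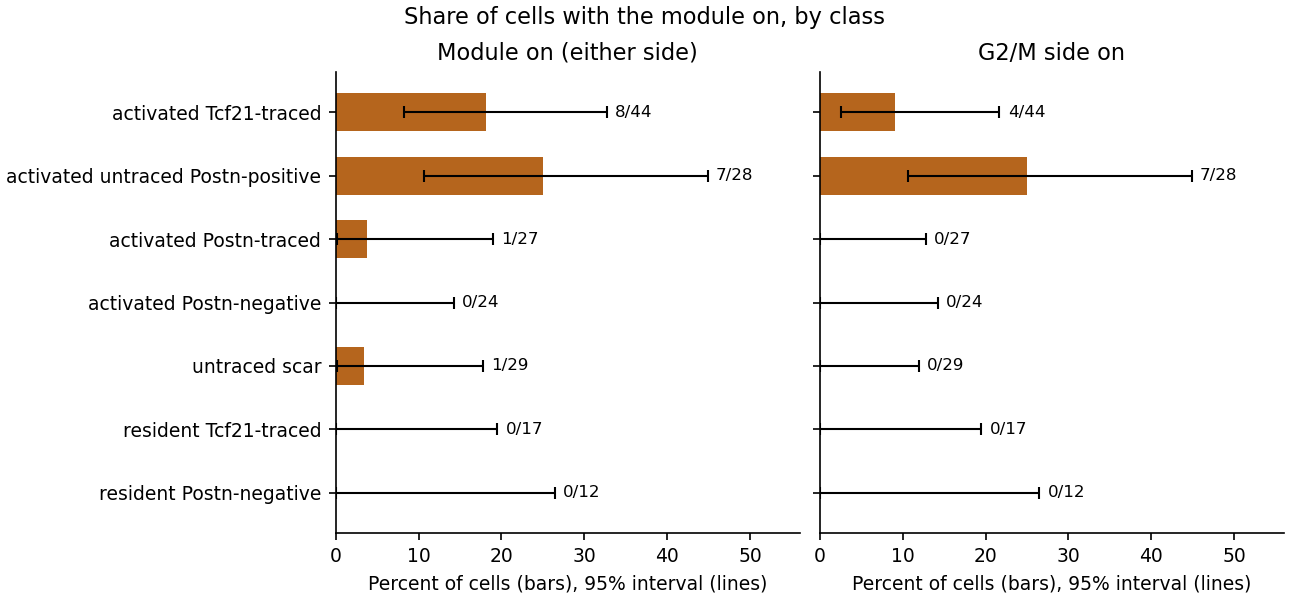
Percent of cells of each class with the module on (left) and with the G2/M side on (right), with the number of cells beside each bar and exact 95% intervals for counting error as lines. Cells with the G2/M side on are seen in the Tcf21-traced (4 of 44) and untraced Postn-positive (7 of 28) classes of the infarct and in no cell of the other classes shown.

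The captures of infarct tissue differed as well. The module was on in 13 of 63 Nov4 cells, 20.6% (11.5 to 32.7%), in 3 of 32 Nov11 cells, 9.38% (1.98 to 25%), and in 1 of 57 Jul29 cells, 1.75% (0.0444 to 9.39%). The G2/M side was on in 9 Nov4 cells and 2 Nov11 cells but in 0 of 57 Jul29 cells, which allows up to 5.26%. Untraced Postn-positive cells had the module on in 5 of 19 in Nov4, 2 of 3 in Nov11 and 0 of 6 in Jul29. They carry the same label in every infarct capture, but the traced cells beside them are Tcf21-traced in Nov4 and Postn-traced in Jul29. Without the Nov4 capture the infarct share was 4.49%, 4 of 89 cells. The low share of Postn-traced cells was thus measured in a capture whose 24 Postn-negative and 6 untraced Postn-positive cells had no module-on cell either, and tracer and capture cannot be told apart.

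Cells with the module on had more genes detected in total. Their median was 4425 genes above 5 TPM, with a range of 2370 to 5419, against 2680 in module-off cells, with a range of 141 to 4881. Within Nov4 the medians were 4425 in 13 module-on and 3039 in 50 module-off cells. The number of members correlated with the number of genes detected within each capture. Pearson r was 0.52 over 63 Nov4 cells, 0.66 over 32 Nov11 cells, 0.58 over 57 Jul29 cells and 0.28 over 33 Jul24 cells. Over the 50 module-off cells of Nov4 alone, r was 0.62. The yield of each cell was not measured. At or above 2370 genes, the lowest number in a module-on cell, lay 109 module-off cells, 23 of them Postn-traced. That class had a median of 3643 genes against 3134 in the activated Tcf21-traced class. The uninjured cells had a median of 2258 genes, and 11 of 33 reached 2370. The part of depth in the module calls and in the differences between classes was not tested.

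**Figure D3:**
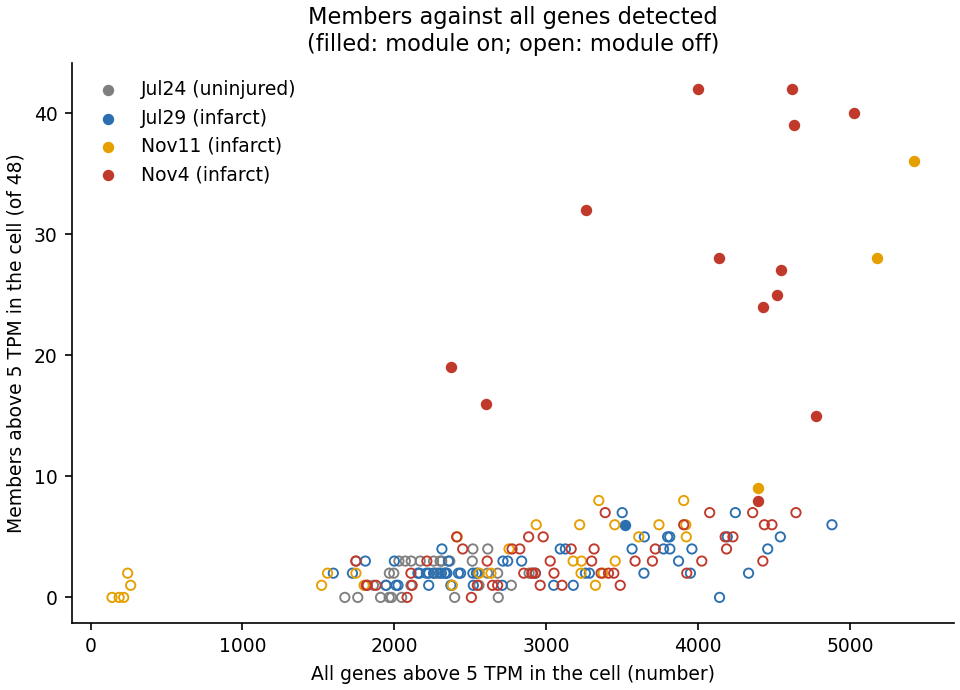
Number of the 48 members (y axis) against the number of all genes above 5 TPM (x axis) in each cell, with filled circles for module-on cells, open circles for module-off cells and colours for captures. Module-off cells stay at 8 members or fewer over the whole range of depth, and 14 of the 17 filled circles lie at 15 members or more. The calls were made from counts of these members, so the rule itself limits the count in a module-off cell.

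The labels fit their markers in part. Whether Postn-positive and Postn-negative labels were set from Postn values of these cells is not stated, so Postn is no independent check of them. Postn, the gene of the matricellular protein periostin, was detected in all 27 Postn-traced and all 28 untraced Postn-positive cells of the infarct, in 39 of 44 activated Tcf21-traced and 24 of 29 untraced scar cells, and in 3 of 24 activated and 3 of 12 resident Postn-negative cells. Tcf21, a transcription factor of the fibroblast lineage, was detected in 26 of 44 activated and 9 of 17 resident Tcf21-traced cells, and in 19 of 24 activated Postn-negative cells. All 17 module-on cells had at least 3 of 6 fibroblast markers above 5 TPM, as had 163 of 168 module-off cells, and Dcn (decorin) was the most abundant of them. Their summed level had a median of 8374 TPM in module-on and 19174 TPM in module-off cells. No module-on cell had 3 or more endothelial, myeloid, lymphoid, cardiomyocyte or epicardial markers. Among the 168 module-off cells the counts were 0, 1, 0, 1 and 1 in that order, so this is no trait of module-on cells. The endothelial genes Kdr, Emcn and Egfl7 and the myeloid genes Ptprc, Lyz2 and Itgam were above 5 TPM in none of the 17. The endothelial genes Tek and Pecam1 were in 3 and 1 of the 17, and in 44 and 4 of 168 module-off cells. The myeloid genes Cd68 and Csf1r were in 3 and 2 of the 17, and in 8 and 3 of 168 module-off cells. Of 6 smooth muscle markers at least 3 were detected in 8 of 17 module-on and 14 of 168 module-off cells, led by Tagln, with Myh11 in none of the 17. Of 6 pericyte markers, led by Pdgfrb, at least 3 were detected in 2 module-on and 3 module-off cells. Pdgfrb was in 13 of 17 and 88 of 168, Cspg4 in 6 and 7, and Kcnj8 and Abcc9 in none of the 17. The part of these marker genes in the calls was not tested.

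The S phase genes open with the helicase. Mcm2 to Mcm7 encode the 6 subunits of the ring that unwinds DNA at replication forks. All 6 were detected together in 5 cells, 2 of them Tcf21-traced and 3 untraced Postn-positive. Such a cell is module-on by the rule, since the S side is called on at 6 S genes. In 46 of 168 module-off cells at least 1 subunit was detected, and in 36 of these it was 1 subunit alone. Mcm7 was detected in 28 cells, 14 module-on and 14 module-off, and Mcm4 in 27, 9 and 18. Mcm2 was detected in 12 cells, 9 of them module-on, with a lowest, median and highest value of 0, 5.63 and 504 TPM among module-on cells and a highest of 103 TPM, in a resident Tcf21-traced cell, among module-off cells. Mcm6, Mcm3 and Mcm5 were detected in 26, 16 and 10 cells.

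Of the factors that load the ring, Cdt1 was detected in 15 cells and its partner Cdc6, which places the ring at origins, in 10, and both together in 4, all module-on. Gins2, a subunit of the complex that activates the helicase, was detected in 20 cells, 12 of them module-on and none of them uninjured. Ccne1, the E-type cyclin that triggers S phase entry, was detected in 2 cells, both activated Tcf21-traced, 1 module-on and 1 module-off. It was the member detected in the fewest cells.

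Of the genes of nucleotide supply, Tyms, thymidylate synthase, was above 5 TPM in 96 cells, the most of any member, and 81 of these were module-off. Its median over cells was 9.57 TPM in activated and 2.96 TPM in resident Tcf21-traced cells, with highest values of 788 and 104 TPM. It was 6.32 TPM in untraced Postn-positive, 6.30 TPM in Postn-traced, 4.30 TPM in untraced scar, 3.98 TPM in activated Postn-negative and 7.19 TPM in resident Postn-negative cells. Rrm1, the large subunit of ribonucleotide reductase, was detected in 55 cells, and Rrm2, the small subunit whose level limits the enzyme in S phase, in 21. Both subunits were found together in 13 cells, 9 module-on and 4 module-off. Tk1, the thymidine kinase of the salvage route, followed the calls closely, with 11 of its 12 cells module-on and none uninjured.

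Pcna, the sliding clamp of DNA polymerases that also serves in repair, was detected in 74 cells, of which 12 were module-on. It was above 5 TPM in 13 of 24 activated Postn-negative and 5 of 12 resident Postn-negative cells, classes without a module-on cell. Its median was 10 TPM in activated Postn-negative cells and 0 TPM in Postn-traced cells, with highest values of 914 and 512 TPM. Among the S genes tied to chromatin, Uhrf1, which guides maintenance of DNA methylation at forks, was detected in 15 cells and 11 of them were module-on. Hells, a chromatin remodeller, was detected in 17 cells with 7 module-on, and Cdca7, which activates it, in 10 with 5.

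Among the G2/M genes the kinase Cdk1, which drives entry into mitosis, was detected in 15 cells, 11 of them module-on. Its lowest, median and highest values were 0, 112 and 464 TPM in module-on cells, and 0, 0 and 136 TPM in module-off cells. Of the 15 cells 7 were activated Tcf21-traced, 7 untraced Postn-positive and 1 from the untraced scar class, and no Postn-traced, Postn-negative or uninjured cell passed 5 TPM. Ccnb1, its mitotic cyclin, was detected in 8 cells, 4 in each of those 2 leading classes and all module-on, and its highest value in a module-off cell was 1.49 TPM. Cdk1 and Ccnb1 were found together in 6 cells. Ccnb2, a second B-type cyclin, was detected in 13 cells, and Ccna2, the cyclin A of S and G2, in 23 cells of which 13 were module-off and 2 were resident Tcf21-traced.

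Mki67, which encodes the proliferation antigen Ki-67 that coats mitotic chromosomes, was detected in 12 cells, with 6 in the activated Tcf21-traced, 5 in the untraced Postn-positive and 1 in the untraced scar class. It was listed at 0 in every Postn-traced, activated Postn-negative, resident Tcf21-traced and resident Postn-negative cell. Among module-on cells its lowest, median and highest values were 0, 49 and 282 TPM, and 10 of 17 passed 5 TPM. Top2a, the topoisomerase that untangles sister chromatids, was also detected in 12 cells, 9 of them module-on, with a median of 61.5 TPM and a highest value of 788 TPM in module-on cells. Mki67 and Top2a were found together in 7 cells, all module-on. A cell could thus have the module on without either gene, as 5 of the 17 did.

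Of the spindle genes, Tpx2, which targets Aurora A to the spindle, Aurka, Aurora A itself, and Plk1, another mitotic kinase, were detected in 12, 8 and 7 cells, with 10, 7 and 7 of them module-on. Kif11, the motor that pushes spindle poles apart, was detected in 8 cells, Nusap1, which bundles microtubules, in 9, and Hmmr, a spindle assembly factor, in 7. Stmn1, stathmin, which destabilises microtubules and is expressed in many growing cells, was detected in 41 cells, 26 of them module-off, and its highest value of all, 7666 TPM, was in a module-off cell of the untraced scar class.

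Of the kinetochore genes Cenpa, the centromeric histone, was detected in 13 cells, and the outer kinetochore proteins Cenpe and Cenpf in 12 and 10, with 10, 10 and 8 of them module-on. Bub1 and Bub1b, kinases of the spindle checkpoint, were detected in 4 and 5 cells, all module-on. Of the chromosomal passenger complex, which corrects faulty attachments, Birc5 (survivin) was detected in 15 cells with 12 module-on, while Cdca8 (borealin) and the kinase Aurkb were detected in 9 and 5 cells, all module-on. The 3 were found together in 4 cells.

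Among the cytokinesis genes, Kif23 and Racgap1 form centralspindlin, which organises the spindle midzone and was complete in 6 cells, all module-on. Racgap1 alone was detected in 5 of 27 Postn-traced cells, where Kif23 was in none. Prc1, which bundles midzone microtubules, Ect2, which activates the contractile ring, and Anln (anillin), its scaffold, were detected in 15, 8 and 14 cells, with 9, 8 and 11 module-on. Kif20a, a midzone motor, was broader, in 27 cells with 17 module-off.

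Of the genes of mitotic exit, Cdc20, the activator of the anaphase-promoting complex, was detected in 38 cells and 29 of them were module-off. Its highest value was 48.4 TPM among module-off cells and 406 TPM among module-on cells, and a value above 0 was listed in all but 5 of the 168 module-off cells. Ube2c, the ubiquitin-conjugating enzyme of the same complex, was detected in 13 cells with 8 module-on. Cks2, a subunit of cyclin-dependent kinases, was detected in 43 cells, the most of the G2/M side, with 15 module-on and 28 module-off. The 7 members found in module-on cells alone were Ccnb1, Aurkb, Bub1, Bub1b, Plk1, Ect2 and Cdca8, all of the G2/M side, beside 315 of 15733 genes or 2% in the whole table, and the calls were made from these members.

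**Figure D4:**
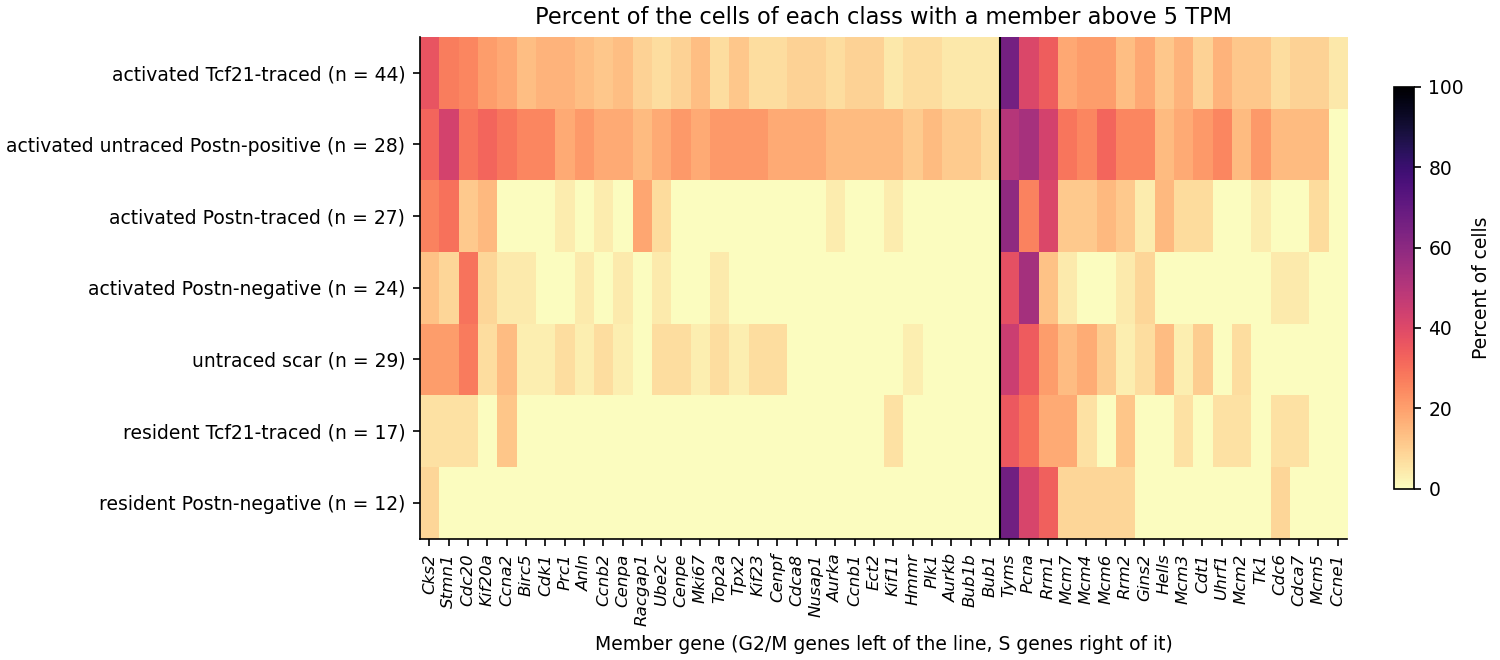
Percent of the cells of each class (y axis, with the number of cells) that have each member (x axis) above 5 TPM, with G2/M genes left of the line and S genes right of it, each ordered by the number of cells. The 2 upper classes show every G2/M gene in some cells, while Tyms, Pcna and Rrm1 appear in all classes shown.

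Over the list, a G2/M gene was detected in a median of 12 cells (4 to 43) and an S gene in a median of 16.5 cells (2 to 96). The share of detecting cells that were module-on had a median of 78.2% for G2/M genes and 50% for S genes. The calls were made from these genes, and the part of the rule in this difference was not tested. In uninjured cells 24 of 30 G2/M genes and 6 of 18 S genes were detected in no cell, 80% and 33.3% against 28.3% of all 15733 genes above 5 TPM in any cell. Of these members 10 had values over 0 in uninjured cells that stayed at or below 5 TPM. In Postn-traced and in activated Postn-negative cells 20 of 30 G2/M genes were detected in no cell, 66.7% against 21.3% and 31.7% of all genes. All 48 genes were detected in at least 1 activated Tcf21-traced cell, where 18.3% of all genes were in none. Stmn1, Ccnb1, Ccnb2, Pcna and Tyms have annotated pseudogenes or related copies with which reads could be split, so their values are less certain.

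The promoters of members were compared because the list is read as genes that are turned on together. Sequences were those of RefSeq on GRCm38.p6, 250 bases before to 50 bases after each annotated start, and 41 of the 48 members matched by symbol, 25 of the G2/M and 16 of the S side. Tpx2, Stmn1, Ccna2, Aurkb, Kif20a, Mcm4 and Gins2 had no entry. The letters TTTGAA, the core of the cell cycle homology region, stood on either strand in 19 of 25 G2/M members and in 1 of 16 S members, against 17.9% of all 32851 promoters. CCAAT, the box of the factor NF-Y, stood in 22 of 25 and 9 of 16, against 37.4%. Any of the E2F forms TTTCGCGC, TTTGGCGC and TTTCCCGC stood in 1 of 25 and 9 of 16, against 1.84%. A member counted once if any of its promoters matched, while the share of all promoters counts each promoter. Mcm7 and Uhrf1 each had 2 promoters, of which 1 held an E2F form. The 1 G2/M member with an E2F form was Cdk1 and the 1 S member with TTTGAA was Mcm2. A match describes the letters alone, and binding was not measured.

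The G2/M promoters below are those of the 3 members with TTTGAA that were detected in the most cells, shown so that the position of the letters can be seen. Each runs from 190 bases before to 10 bases after the annotated start, with TTTGAA in capitals. Cdc20 lies at chr4:118437334-118437533 on the minus strand, and its match begins 18 bases before the start. Cdk1 lies at chr10:69352903-69353102 on the minus strand with matches 71 and 15 bases before the start. Prc1 lies at chr7:80294261-80294460 on the plus strand with a match 5 bases before the start that runs across it.
Cdc20: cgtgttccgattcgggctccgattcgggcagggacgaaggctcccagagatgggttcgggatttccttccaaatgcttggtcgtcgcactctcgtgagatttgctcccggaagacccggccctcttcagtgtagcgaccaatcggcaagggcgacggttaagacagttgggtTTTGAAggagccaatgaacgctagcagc
Cdk1: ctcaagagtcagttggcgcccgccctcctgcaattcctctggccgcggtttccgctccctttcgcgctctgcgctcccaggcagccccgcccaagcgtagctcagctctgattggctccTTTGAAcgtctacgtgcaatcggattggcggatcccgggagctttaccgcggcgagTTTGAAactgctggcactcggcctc
Prc1: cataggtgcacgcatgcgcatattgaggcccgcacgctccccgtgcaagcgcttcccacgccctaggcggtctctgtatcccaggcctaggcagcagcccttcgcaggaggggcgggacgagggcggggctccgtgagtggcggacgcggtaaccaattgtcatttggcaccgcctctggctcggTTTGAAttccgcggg

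The S phase promoters are those of the 3 members with an E2F form that were detected in the most cells, with the same span and the E2F forms of either strand in capitals. Mcm7 lies at chr5:138171874-138172073 on the minus strand, with a match 165 bases before the start and another not wholly within the printed stretch. Mcm6 lies at chr1:128359696-128359895 on the minus strand, with matches 110, 106 and 47 bases before the start, the first 2 of which overlap. Hells lies at chr19:38930800-38930999 on the plus strand with a match 62 bases before the start.
Mcm7: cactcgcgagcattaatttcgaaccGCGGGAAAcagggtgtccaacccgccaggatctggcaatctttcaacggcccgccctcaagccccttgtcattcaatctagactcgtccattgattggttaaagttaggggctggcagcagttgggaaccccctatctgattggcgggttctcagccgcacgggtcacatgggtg
Mcm6: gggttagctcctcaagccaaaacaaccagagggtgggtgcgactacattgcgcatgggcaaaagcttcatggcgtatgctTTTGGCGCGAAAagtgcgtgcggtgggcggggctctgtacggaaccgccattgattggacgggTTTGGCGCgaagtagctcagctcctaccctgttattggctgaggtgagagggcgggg
Hells: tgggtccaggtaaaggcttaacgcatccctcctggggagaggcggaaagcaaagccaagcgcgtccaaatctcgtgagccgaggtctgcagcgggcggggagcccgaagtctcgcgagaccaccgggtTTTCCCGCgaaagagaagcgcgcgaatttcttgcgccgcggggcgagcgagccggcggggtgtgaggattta

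Class means of log2(TPM + 1) were compared next, since few cells had the module on and a mean takes in all cells of a class. A gene was called where means differed by more than 1 log2 unit among 15733 genes above 5 TPM in at least 1 cell. Several of the comparisons share the activated Tcf21-traced class and are not independent of each other. The first comparison asked what injury does to the Tcf21 lineage. Between activated and resident Tcf21-traced cells 10 of 48 members were higher after infarction, 20.8% against 16.9% of all genes, and 0 were lower, against 2.65%. The median difference was 0.58 over the members and 0.16 over all genes, both in log2 units. How the count of higher members stands to all genes depended on the rule. The count was 31 of 48 against 31.4% past 0.5 log2 units, and 41 of 48 against 31.5% with means taken before the logarithm. Past 2 log2 units it was 0 of 48 against 4.74%.

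The 10 members came from both sides. Cks2 had a mean of 2.26 in activated and 0.30 in resident cells, with 16 of 44 and 1 of 17 cells above 5 TPM. Stmn1 had means of 2.17 and 0.27, with 12 and 1 cells. Tyms had means of 3.67 and 2.30, with 29 and 6 cells. Cdk1 was listed at 0 in all 17 resident cells and had a mean of 1.19 in activated cells, where 7 of 44 passed 5 TPM. The remaining 6 were Mcm6, Pcna, Prc1, Gins2, Kif20a and Birc5, with differences of 1.20, 1.17, 1.13, 1.10, 1.02 and 1.01. Mki67 was just under the limit, with means of 0.91 and 0. In activated cells every one of these genes but Tyms was above 5 TPM in fewer cells than not, and the 2 classes came from different captures.

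Within the Jul29 capture, activated Postn-traced and Postn-negative cells of the infarct could be compared without a change of capture, though with a median of 3643 and 2342 genes detected. Of the members 3 were higher in Postn-traced cells, 6.25% against 16.7% of all genes, and 1 was lower, 2.08% against 2.35%. Rrm1 had means of 2.26 and 0.91, Stmn1 of 1.87 and 0.85, and Racgap1 of 1.01 and 0. Pcna was lower, with means of 1.93 and 3.56, and 7 of 27 against 13 of 24 cells above 5 TPM. The median difference was 0.04 over the members and 0.19 over all genes. In the same comparison all 12 genes of a myofibroblast list were higher, with a median difference of 4.41. That list was chosen with results on these cells known, and it includes Postn, by which the classes were labelled.

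Within the Nov4 capture, activated Tcf21-traced cells were compared with untraced Postn-positive cells. Of the members 0 were higher in Tcf21-traced cells, against 3.34% of all genes, and 8 were lower, 16.7% against 5.05%. The 8 were Stmn1, Cenpe, Birc5, Rrm1, Pcna, Top2a, Kif23 and Mcm7. Stmn1 had a mean of 2.17 in Tcf21-traced and 3.80 in untraced Postn-positive cells, and Birc5 means of 1.14 and 2.41, with 6 of 44 and 5 of 19 cells above 5 TPM. Cenpe had means of 0.55 and 1.87, with 4 and 5 cells. The median difference was −0.54 over the members and 0 over all genes, and of the 12 myofibroblast genes 7 were lower, with a median of −1.20. In the second class 5 of 19 cells had the module on, and the part of these cells in the means was not tested.

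Activated Tcf21-traced and Postn-traced cells, which came from different captures, were set side by side because both are traced infarct cells. Of the members 3 were higher in Tcf21-traced cells, 6.25% against 3.43% of all genes, and 0 were lower, against 6.14%. They were Cdk1, with means of 1.19 and 0.06, Birc5, with 1.14 and 0.04, and Tyms, with 3.67 and 2.52. The median difference was 0.50 over the members and −0.01 over all genes, and 9 of the 12 myofibroblast genes were lower, with a median of −1.50. The count of higher members depended on the rule. It was 24 of 48 against 11.6% of all genes past 0.5 log2 units, and 38 of 48 against 18.4% with means taken before the logarithm. Past 2 log2 units it was 0 against 0.350%.

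The remaining comparisons gave few member calls. Between activated and resident Postn-negative cells 1 member was higher, Pcna with means of 3.56 and 2.42, against 10.3% of all genes, and 2 were lower, Rrm1 with 0.91 and 2.42 and Tyms with 2.07 and 3.11, against 5.20%. The median was 0 over the members and over all genes. Between untraced scar and activated Tcf21-traced cells 0 members were higher, against 1.11% of all genes, and 3 were lower, 6.25% against 13.2%. These were Tyms, Uhrf1 and Cdk1, with differences of −1.34, −1.10 and −1.09. The median difference was −0.46 over the members, 46 of which lay below 0, and −0.12 over all genes. Here too the standing to all genes depended on the rule. The count of lower members was 20 of 48 against 26.6% past 0.5 log2 units, and 37 of 48 against 25.2% with means taken before the logarithm. In this comparison 5 of 10 genes used by most cells, such as Ppia and Gapdh, were also lower, with a median over the 10 of −1.06, and 5 scar cells had fewer than 300 genes detected. In cells with at least 2000 genes 2 members were lower against 6.25% of all genes and 0 higher against 4.79%, with medians of −0.42 over the members and −0.0012 over all genes.

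The other genes of the cycle were read from lists outside the module. Within the Nov4 capture the median gene of the table was detected in 15.4% of the 13 module-on and 10% of the 50 module-off cells, which sets the scale. The median of 15 other spindle and cytokinesis genes was 38.5% against 0%. Over the cells of all captures, 7 of these genes were detected in module-on cells alone, as were 315 of all 15733 genes. Tacc3, a spindle pole protein, Ckap2, a microtubule protein, and its relative Ckap2l were the most widely detected, in 20, 16 and 11 cells. For 15 other kinetochore and checkpoint genes the medians were 46.2% and 2%. Ndc80, which binds microtubules at the kinetochore, was detected in 10 cells, all module-on. Spc24 and Bub3 were detected in 116 and 84 cells in contrast, and Mad2l1, the checkpoint protein, in 19 with 10 module-on.

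For 29 other replication genes the medians were 46.2% and 2%. Slbp, Nasp and Tipin, which handle histone mRNA, histones and forks, were detected in 83, 58 and 49 cells, and Gmnn, geminin, which blocks relicensing, in 9 of 13 module-on and 2 of 50 module-off Nov4 cells. For 10 condensin and chromatin genes the medians were 65.4% and 17%. The histone variant H2afz was detected in 157 cells, Hmgn2 in 116 and the condensin subunit Smc4 in 76, and H2afz and Hmgn2 were in all 17 module-on cells. For 12 other genes of mitotic entry and exit the medians were 30.8% and 2%. Cks1b, the paralogue of Cks2, was detected in all 17 module-on cells and in 49 of 168 module-off cells, Pttg1, securin, in 14 and 38, and Fzr1, the G1 activator of the anaphase-promoting complex, in 8 and 20.

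**Figure D5:**
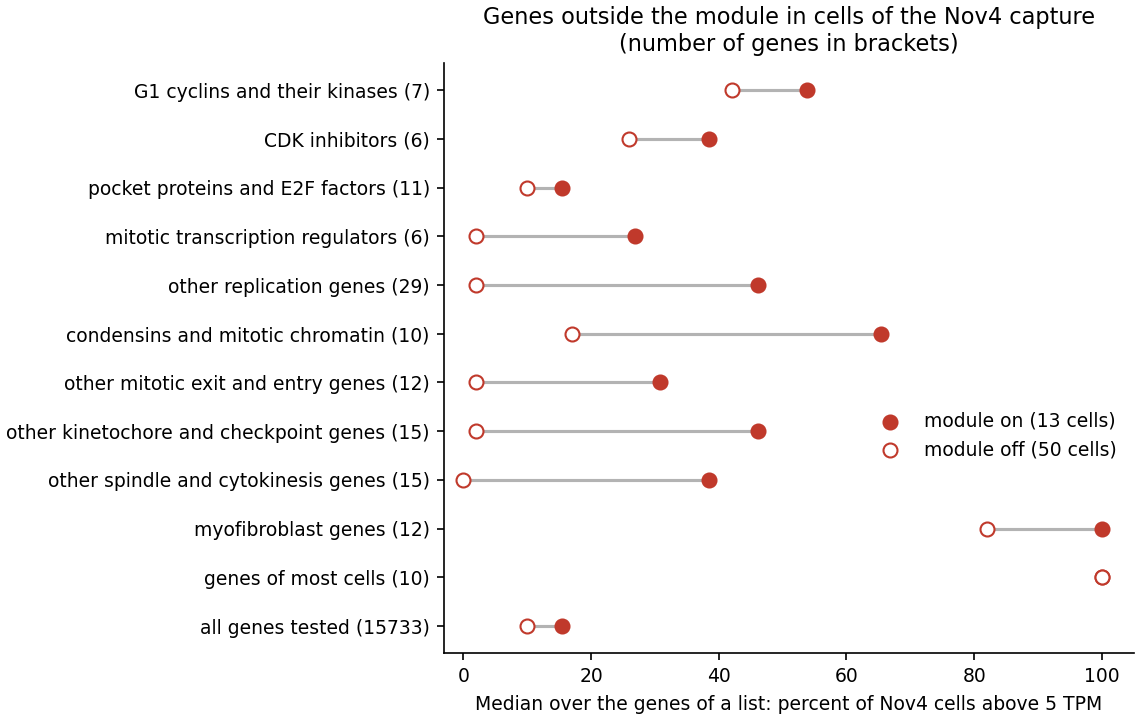
Median over the genes of each list of the percent of Nov4 cells with the gene above 5 TPM (x axis), for 13 module-on cells (filled) and 50 module-off cells (open), with the number of genes in brackets. Mitotic and replication lists outside the module move from 0 to 17% up to 26.9 to 65.4%, and the medians of G1 cyclins, CDK inhibitors and E2F factors from 10 to 42% up to 15.4 to 53.8%.

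Regulators of the cycle were read in the same way. For 7 G1 cyclins and kinases the medians were 53.8% and 42%. Cdk4, the kinase of G1, was detected in 96 cells, 15 of them module-on, Ccnd2 in 79 and Ccnd3 in 68. Ccnd1, cyclin D1, was in 19 of 44 activated Tcf21-traced and 1 of 29 untraced scar cells. Cdk2, the kinase of S phase entry, was in 7 of 13 module-on and 2 of 50 module-off Nov4 cells, and Ccne2, the second cyclin E, in 5 and 4. For 6 CDK inhibitors the medians were 38.5% and 26%. Cdkn1a (p21) was detected in 114 cells, with 5 of 13 module-on and 28 of 50 module-off Nov4 cells, and its medians there were 0 and 4.86 on the log2 scale. Cdkn1b (p27) was detected in 72 cells and Cdkn2c in 49. Cdkn1c (p57) was detected in 45 cells, 2 of them module-on, and Cdkn2d in 7 of 13 module-on and 3 of 50 module-off Nov4 cells.

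For 11 detected pocket proteins and E2F factors the medians were 15.4% and 10%, equal to those of all genes. Tfdp1, the dimer partner of E2F factors, was detected in 50 cells, Rbl2 in 40 and E2f1 in 27, of which 3 were module-on. E2f2 passed 5 TPM in no cell. For 6 mitotic transcription regulators the medians were 26.9% and 2%. Lin37, Lin52 and Lin9, subunits of the MuvB complex, were detected in 23, 19 and 11 cells. Its partners Foxm1 and Mybl2, named after their values were seen, were detected in 5 and 4 cells, of which 4 and 3 were module-on.

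The lists were compared between classes as well. Between activated and resident Tcf21-traced cells 3 of 15 other kinetochore genes, 0 of 15 other spindle genes, 3 of 12 entry and exit genes, 3 of 10 condensin and chromatin genes and 2 of 29 other replication genes were higher, with none lower, beside 16.9% of all genes. Hmgn2 differed most of these, by 3.97 log2 units, followed by H2afz by 2.10. Among G1 genes Cdk4 was higher by 2.57 and Ccnd3 had a difference of −1.37. Among CDK inhibitors Cdkn2d had a difference of −1.05, Tfdp1 was the 1 E2F-related gene called, at 1.49, and no mitotic transcription regulator was called. Tcf21-traced cells were also compared with untraced Postn-positive cells within Nov4. There 4 of 15 other kinetochore, 2 of 15 other spindle, 3 of 29 other replication and 2 of 7 G1 genes were lower. The counts were 1 of 10 for condensin and chromatin and 0 of 12 for entry and exit. In these lists 0 genes were higher, beside 5.05% of all genes lower and 3.34% higher.

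Within Nov4 the median gene of the 12 myofibroblast genes was detected in 100% of module-on and 82% of module-off cells. Postn was detected in 13 of 13 and 45 of 50, Acta2, smooth muscle actin, in 12 of 13 and 21 of 50, and Tnc, tenascin C, in 5 of 13 and 15 of 50. Eln, elastin, was in 6 of 13 and 34 of 50, and Mfap2, a microfibril protein, in 9 of 13 and 36 of 50. Col1a2, Col3a1 and Col1a1 were detected in 183, 178 and 177 cells. Of the genes used by most cells Actb was detected in all cells and Eef1a1 in 184, but Hprt in 99 and Tbp in 18, so a gene not detected in a cell may have been missed.

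The 15 genes outside the list whose log2 level followed the number of members most closely over all 152 infarct and 33 uninjured cells had Pearson r of 0.75 to 0.86, against a median of 0.09 over 11749 genes. Among them were Ndc80, Cep55, Ckap2l, Fam64a, Asf1b, Cenph, 2810417H13Rik, Cdkn3, Kif22, Esco2, Spag5, Nuf2, Mastl and Kif4. Of these, 10 stood in one of the lists above. Ndc80 reached 0.86 over 10 detecting cells, and Cep55, an abscission protein, 0.83 over 6. These cells share captures and depth, and the choice depends on the measure, since 0 of the 15 were among the 15 highest by Spearman correlation.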

How the data were processed

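Single cells were captured on the Fluidigm C1 system, and libraries were made with SMARTer amplification and Nextera tagmentation. The submitters' processing notes name Bowtie 1.0.0, eXpress 1.5.1 and mm10. Values are those the authors deposited, as log2 (TPM + 1), with 17171 genes listed. The file is titled FPKM while its header says TPM. Converted back, cells sum to between 999257 and 1000000, as TPM does. Of the values over 0, 11.4% lie under 0.001 TPM. A further 3 columns without a sample were not used. The files give no read count for single cells, and the number of genes above 5 TPM stands in for it (median 2770).

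Members, lists, limits and the rule for naming genes were chosen with earlier results of these data known. Named in full are the 5 genes of each side detected in the most cells, and Mki67, Top2a, Ccnb1, Cdk1, Pcna and Mcm2; in other lists, at least the 3 genes detected in the most cells. Some genes that this rule would name are not reported here. Each class counts as 1 sample, so class means and shares were described without a test. Stmn1, Ccnb1, Ccnb2, Pcna and Tyms have annotated pseudogene or related copies that can share reads, so their values are uncertain. Scripts were tested on simulated data. Alternatives changed the minimum, limits, genes, cells, scale and likeness measure. Figures were drawn with Matplotlib 3.10.9. Statistics used SciPy 1.17.1, and tables were handled in pandas 2.3.3, NumPy 2.4.6 and Python 3.11.15.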

Additional observations from a re-analysis of the deposited data

How the results depend on the processing

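All classes but the untraced Postn-positive cells came from 1 capture each, and no label ties cells to mice. Counts of module-on cells were small, so differences between classes in the share of module-on cells rest on 17 cells. Genes at 0 may have been missed, read counts of single cells were not in the files, and annotated copies can share reads with 5 members. No paired analysis was possible because no label links cells of different classes to the same heart. In all, 245 alternative values were computed for 26 results, of which 177 were labelled the same and 68 moved. The label of same allowed wide changes, such as 3.45% to 13.8% in untraced scar cells. A median of 3 to 8 members in infarct cells had that label too. The settings without members that have copies and with 11 G2/M or 7 S genes required were added after the data were seen. The cause of a move was not tested.

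The infarct share of 11.2% (17 of 152 cells) became 18.4% (28 of 152) with any value over 0 taken as detected and 4.49% (4 of 89) without the Nov4 capture; it was 16.8% (16 of 95) without Jul29 and 11.7% (14 of 120) without Nov11. With any value over 0 the uninjured share of 0% became 3.03% (1 of 33), from 1 resident Postn-negative cell. The shares of 3.70% in Postn-traced cells and 1.75% in the Jul29 capture, both from 1 cell, became 0% with a minimum of 20 TPM, with 15 G2/M or 9 S genes required, without Stmn1, Cks2, Pcna and Rrm1, with 16 of all 48 members required, and with 11 G2/M or 7 S genes required. The share of 3.45% in untraced scar cells, also from 1 cell, became 0% with the minimum of 20 TPM, with 15 or 9 genes and with 16 of 48 members. Lower minima raised these shares within their intervals: at 1 TPM to 7.41% in Postn-traced cells (2 of 27), 3.51% in Jul29 (2 of 57) and 10.3% in scar cells (3 of 29), and with any value over 0 to 11.1%, 5.26% and 13.8%. With 8 G2/M or 5 S genes required the scar share was 6.90% (2 of 29). The Nov11 share of 9.38% (3 of 32) was 15.6% (5 of 32) at 1 TPM and 18.8% (6 of 32) with any value over 0, and 6.25% (2 of 32) at 20 TPM, with 15 or 9 genes and with 16 of 48 members. The median of 2 members in uninjured cells became 7 with any value over 0, while that of 3 in infarct cells became 8.

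Counts of called members depended on the rule. Here and in the next paragraph each count is out of 48 members, while the values for all genes are in percent. For activated minus resident Tcf21-traced cells, the 10 higher members became 31 at 0.5 log2 units, 0 at 2 log2 units, 22 by a share of cells differing by more than 10 points, 41 with linear means, 23 with a pseudocount of 0.1, 2 with a pseudocount of 5 and 27 with centred cells, beside 31.4, 4.74, 29.6, 31.5, 28.4, 8.42 and 29.4% of all genes. Centring moved the median of all genes from 0.16 to 0.61 and that of the members from 0.58 to 1.03. The 0 lower members became 3 with linear means and 1 in cells with at least 2000 genes, beside 17.3 and 4.25% of all genes. In the same order of settings, the 3 higher members of Postn-traced minus Postn-negative cells became 8, 0, 8, 12, 7, 0 and 8, beside 32.2, 4.22, 30.7, 27.6, 28.8, 8.11 and 33.2% of all genes. The 8 lower members of Tcf21-traced minus untraced Postn-positive cells became 25, 0, 18, 25, 20, 1 and 16, beside 16, 0.362, 13.9, 15.8, 11.8, 1.72 and 9.38%. In the same order, the 3 lower members of untraced scar minus Tcf21-traced cells became 20, 0, 15, 37, 15, 0 and 43, beside 26.6, 2.69, 24.2, 25.2, 23.3, 6.63 and 45.4%, and centring moved the median of all genes from −0.12 to −0.95. In that order without centring, the 3 higher members of Tcf21-traced minus Postn-traced cells became 24, 0, 14, 38, 17 and 0, and 6 in cells with at least 2000 genes, beside 11.6, 0.350, 8.38, 18.4, 8.03, 1.37 and 4.28%. Likewise the 1 higher member of activated minus resident Postn-negative cells became 4, 0, 2, 10, 4 and 0, and 0 in cells with at least 2000 genes, beside 22, 2.29, 17, 30.1, 17.7, 5.49 and 10.4%.

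The 1 lower member of Postn-traced minus Postn-negative cells became 0 at 2 log2 units, 2 by share of cells and 7 with linear means, beside 0.648, 3.85 and 18.4% of all genes. The 2 lower members of activated minus resident Postn-negative cells became 0 at 2 log2 units, 7 with linear means and 0 with a pseudocount of 5, beside 0.604, 18.2 and 2.50%. The 0 higher members of Tcf21-traced minus untraced Postn-positive cells became 1 by share of cells and 2 with linear means, beside 9.01 and 22.6%, and the 0 higher members of untraced scar minus Tcf21-traced cells became 3 with linear means, beside 17.4%. Of the 15 genes most like the module by Pearson correlation, 0 remained by Spearman correlation.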
